A study of Mus musculus with 18 samples.

Results

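Reactive microglia and phagocyte genes are described here as 10 genes chosen by symbol from the 50559 genes of a count table of mouse thalamus: Clec7a, Trem2, Tyrobp, Apoe, Lpl, Lgals3, Cst7, Spp1, Itgax and Cd68. All 10 were among the 18452 genes that passed the filter on low counts. The measurements are RNA-seq counts from 18 libraries of poly(A) RNA from wild-type (WT) mouse thalamus, 6 in each of 3 groups. The intervene group received Coll IV and remodelin, an inhibitor of the RNA acetyltransferase NAT10. The model group received Coll IV alone, and the control group received saline. The series concerns remodelin and inflammation-related genes in thalamic haemorrhage. The labels do not expand Coll IV, and they give no age, sex, dose or time. They number the samples without stating that each is a separate animal, so a p-value here reflects how much these samples vary, which may be technical.

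Microglia are the resident phagocytes of the brain. Near amyloid, damaged myelin or dying cells they switch on a reactive programme, often called the disease-associated microglia state. TREM2 is a surface receptor that binds lipids and lipoproteins, APOE among them, and signals through the adaptor TYROBP (DAP12) and the kinase SYK. Mouse genetics has placed a first step of the programme, with Tyrobp and Apoe, before TREM2 and a later step, with Lpl, Cst7, Itgax, Clec7a and Spp1, after it. After brain haemorrhage such cells, and macrophages that enter from blood, take up red cells and debris. Most of these genes are not exclusive to microglia: astrocytes make much of the brain's Apoe, and neurons, vessels, oligodendrocyte-lineage cells or infiltrating macrophages can express Lpl, Spp1, Lgals3 and Cd68.

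Replicates 1 to 3 and replicates 4 to 6 of each group differed, a division seen in the data and not stated in the labels. Between these sets 38.2% of 18452 genes had an edgeR adjusted p under 0.05 in control, 18.7% in model and 14.9% in intervene libraries. Summed expression of 11 thalamic neuron genes, in CPM (counts relative to library size, scaled by the TMM method), was 462 to 665 in intervene replicates 4 to 6, 168 to 283 in model replicates 4 to 6 and 123 to 136 in control replicates 4 to 6. The sums in replicates 1 to 3 were 627 to 694 in intervene, 490 to 906 in model and 763 to 922 in control libraries. By this sum the intervene sets overlapped. The thalamic label thus had less marker RNA behind it in replicates 4 to 6 of the model and control groups. Libraries held 28481225 to 118461420 counts. The members are compared below over all 6 replicates and within each replicate set, n = 3 a group. Some results on other genes and lists are given for replicates 4 to 6 only. In bulk tissue, fewer cells of a type and less RNA per cell cannot be told apart.

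Promoter sequence was read for the 8 members in the promoter table, and the windows of some of them are shown. The windows below are the 150 bases before an annotated start, 5' to 3' on the gene's strand, from RefSeq on GRCm38.p6, an older build than the GRCm39 of the counts. They show Clec7a and Lgals3, the pair that stood apart between the intervene and control groups, Trem2, which parted from its adaptor Tyrobp, and Itgax and Cd68, markers of phagocytes. Capitals mark a match, on either strand, to GAGGAAG, a core bound by the myeloid factor PU.1 and other ETS factors, or to TGANTCA, the AP-1 element. The positions are chr6:129472780-129472929 (minus strand) for Clec7a, chr14:47373710-47373859 (plus) for Lgals3, chr17:48346251-48346400 (plus) for Trem2, chr7:128129400-128129549 (plus) for Itgax and chr11:69666171-69666320 (minus) for Cd68.
Clec7a: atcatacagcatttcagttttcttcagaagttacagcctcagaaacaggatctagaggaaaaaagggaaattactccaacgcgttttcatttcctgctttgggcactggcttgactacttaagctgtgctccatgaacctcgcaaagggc
Lgals3: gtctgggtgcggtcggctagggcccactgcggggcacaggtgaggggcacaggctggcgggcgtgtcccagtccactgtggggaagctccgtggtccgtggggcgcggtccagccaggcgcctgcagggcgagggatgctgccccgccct
Trem2: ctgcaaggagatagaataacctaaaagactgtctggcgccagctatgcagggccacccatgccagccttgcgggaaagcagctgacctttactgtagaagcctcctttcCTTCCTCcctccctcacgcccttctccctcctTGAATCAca
Itgax: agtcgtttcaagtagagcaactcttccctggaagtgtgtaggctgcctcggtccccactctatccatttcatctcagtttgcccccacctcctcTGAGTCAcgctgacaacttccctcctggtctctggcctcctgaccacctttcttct
Cd68: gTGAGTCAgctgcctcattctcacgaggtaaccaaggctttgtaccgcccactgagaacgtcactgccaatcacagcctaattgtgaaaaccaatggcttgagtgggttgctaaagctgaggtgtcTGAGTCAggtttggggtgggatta

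The Trem2 window held both kinds of match, the ETS core in the reverse orientation (CTTCCTC). The Cd68 window held 2 AP-1 matches and the Itgax window 1. Neither motif was found in the windows of Clec7a, Lgals3, Apoe or Cst7, and an ETS core was also found in 1 of the windows of Spp1. Of the 10 genes, 8 were in the promoter table, with 12 starts, and Tyrobp and Lpl were not. An ETS core was in 6.85% of 32851 promoter windows of this length, and an AP-1 element in 4.24%. A match here is a description of letters, and the counts bear on no factor's binding.

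Compared per length, with FPKM (counts relative to gene length and library size), Apoe was by far the most abundant member, at 409 to 781 FPKM over the 18 libraries. Tyrobp followed at 15.3 to 29.0 FPKM. Trem2 at 5.56 to 13.5, Spp1 at 2.41 to 40.3 and Cd68 at 2.53 to 5.78 FPKM overlapped in range. Lpl had 0.564 to 3.68 FPKM and Lgals3 0.0932 to 3.61. Clec7a (0.0287 to 1.03), Cst7 (0 to 0.879) and Itgax (0 to 0.274) were the least abundant. Their raw counts were 4 to 146, 0 to 54 and 0 to 76 per library.

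Taken over all replicates, Clec7a and Lgals3 were higher in each of the 6 intervene libraries than in each of the 6 control libraries. With the quasi-likelihood test of edgeR, no member passed the threshold in any of the 3 comparisons of 6 with 6, and neither did any gene of the whole table (0% of 18452). Intervene against control gave the widest differences, with 10 of 10 members positive and a median log2 fold change of 0.73, while 9380 of the 18452 genes were positive with a median of 0.00. Before adjustment 5 of 10 members had a p under 0.05 there, all higher, and 5.12% of all genes did. Groups without overlap were found for 2 of 10 members and 0.369% of all genes. Intervene against model had 9 of 10 members positive (median 0.37), 1 of 10 at an unadjusted p under 0.05 (1.86% of all genes) and 0 without overlap (0.152%). Model against control had 9 of 10 positive (median 0.35), 2 of 10 at an unadjusted p under 0.05 (1.02%) and 0 without overlap (0.0488%). These comparisons share libraries, so they are not independent of each other. DESeq2 called 2 of 10 members in intervene against control (0.365% of the genes it tested were higher) and 0 in the other comparisons, and limma on log2(FPKM + 1) called 0 in all 3.

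**Figure D1:**
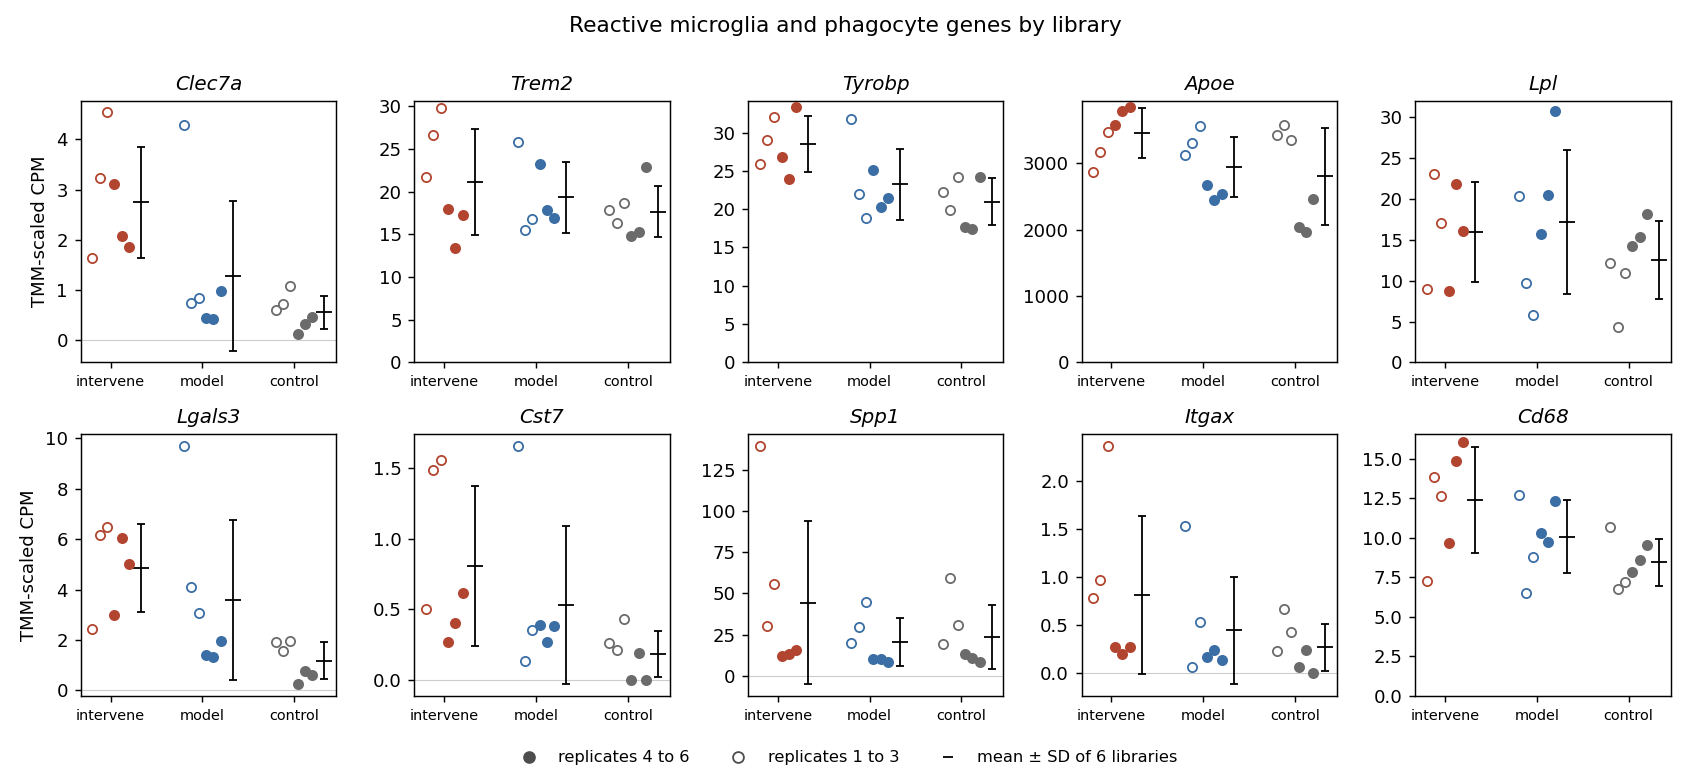
CPM of the 10 genes in each library, 1 panel a gene on a linear axis, with intervene, model and control from left to right and the mean ± SD of 6 libraries in black. Filled points are replicates 4 to 6 and open points replicates 1 to 3. Clec7a and Lgals3 show 6 intervene points above all 6 control points, and the Apoe sets lie apart in all 3 groups, with replicates 4 to 6 above replicates 1 to 3 in intervene and below them in model and control.

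Clec7a encodes dectin-1, a receptor for beta-glucans that signals through SYK and is one of the most inducible genes of reactive microglia. It had 1.64, 3.24, 4.54, 3.11, 2.08 and 1.85 CPM in intervene replicates 1 to 6. Model libraries had 4.29, 0.730, 0.829, 0.447, 0.415 and 0.980 CPM, and control libraries had 0.607, 0.724, 1.08, 0.128, 0.312 and 0.465 CPM. The lowest intervene library exceeded the highest control library, and model replicate 1 stood with the intervene group while the other 5 model libraries lay below all 6 intervene libraries. Means were 2.74 ± 1.10 in intervene, 1.28 ± 1.49 in model and 0.553 ± 0.333 in control libraries (SD, n = 6 each). Intervene against control gave a log2 fold change of 2.32 ± 0.56 (SE; edgeR unadjusted p = 6.6e-04, adjusted p = 0.276, with a range of 0.00992 to 0.619 over the alternative settings). With the replicate set added as a factor the value was 2.48 ± 0.46 (edgeR adjusted p = 0.0314), and DESeq2 gave an adjusted p of 0.00992. For intervene against model the log2 fold change was 1.10 ± 0.54 (edgeR adjusted p = 0.988), and for model against control 1.22 ± 0.56 (adjusted p = 1). Without model replicate 1 these values were 2.01 (adjusted p = 0.445) and 0.30 (adjusted p = 1).

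Trem2 encodes the lipid receptor itself. Its levels were 21.7, 26.6, 29.9, 17.9, 13.4 and 17.3 CPM in intervene, 25.8, 15.5, 16.9, 23.3, 17.8 and 16.9 in model, and 17.8, 16.3, 18.7, 14.8, 15.2 and 22.9 in control replicates 1 to 6. Over all replicates the 3 groups overlapped, and the log2 fold changes were 0.13 ± 0.18 for intervene against model, 0.26 ± 0.18 for intervene against control and 0.14 ± 0.18 for model against control. By set, intervene replicates 4 to 6 averaged 16.2 ± 2.48 CPM and intervene replicates 1 to 3 averaged 26.1 ± 4.09 (SD, n = 3). That difference passed the test, with Trem2 lower in intervene replicates 4 to 6 by a log2 fold change of -0.69 ± 0.21 (edgeR adjusted p = 0.0356). The call was lost without intervene replicate 2 (adjusted p = 0.061), 3 (0.127), 5 (0.13) or 6 (0.0788), 4 of the 6 libraries compared. Model libraries averaged 19.4 CPM in each set, with SD 3.43 in replicates 4 to 6 and 5.62 in replicates 1 to 3, and control libraries 17.7 ± 4.55 and 17.6 ± 1.18.

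Tyrobp encodes the adaptor through which TREM2 and several related receptors signal. It had 25.9, 29.0, 32.1, 26.8, 24.0 and 33.4 CPM in intervene, 31.7, 22.0, 18.8, 25.1, 20.3 and 21.5 in model, and 22.3, 19.9, 24.3, 17.7, 17.4 and 24.2 in control replicates 1 to 6. Of the 6 intervene libraries, 5 lay above every control library. The log2 fold change was 0.44 ± 0.13 for intervene against control (edgeR unadjusted p = 0.00289, adjusted p = 0.368), 0.30 ± 0.13 for intervene against model (adjusted p = 0.988) and 0.15 ± 0.13 for model against control (adjusted p = 1).

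The receptor and its adaptor did not keep 1 proportion. In intervene replicates 4 to 6 there were 0.668, 0.557 and 0.518 Trem2 counts per Tyrobp count. In intervene replicates 1 to 3 the ratio was 0.840, 0.917 and 0.931. Model replicates 1 to 6 had 0.814, 0.705, 0.895, 0.929, 0.879 and 0.788, and control replicates 1 to 6 had 0.80, 0.821, 0.770, 0.839, 0.875 and 0.945. The 3 intervene libraries of replicates 4 to 6 thus lay below the other 15 libraries. The ratio was examined after both genes' values had been seen and was not tested. It shows unequal levels of the genes and not which of them moved.

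**Figure D2:**
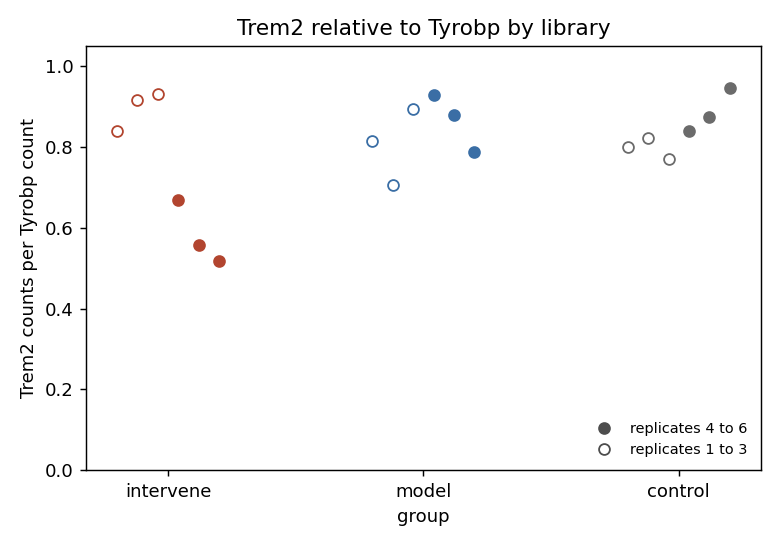
Trem2 counts divided by Tyrobp counts in each library, for intervene, model and control from left to right. Filled points are replicates 4 to 6 and open points replicates 1 to 3. The filled intervene points, at 0.518 to 0.668, are the lowest of the 18.

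Apoe encodes apolipoprotein E, the main lipid carrier of the brain. Its levels were 2872, 3164, 3468, 3580, 3780 and 3851 CPM in intervene, 3124, 3307, 3559, 2669, 2442 and 2540 in model, and 3419, 3575, 3355, 2047, 1972 and 2467 in control replicates 1 to 6. Over all replicates the groups overlapped, and the log2 fold changes were 0.23 ± 0.15 for intervene against model, 0.30 ± 0.15 for intervene against control and 0.07 ± 0.15 for model against control, none past the test. By set, the picture divided. In replicates 4 to 6 the 3 intervene libraries, at 3737 ± 141 CPM, were above the 3 model libraries, at 2550 ± 114, and the 3 control libraries, at 2162 ± 267. In replicates 1 to 3 intervene libraries averaged 3168 ± 298, model libraries 3330 ± 219 and control libraries 3450 ± 114 CPM (SD, n = 3 each), and the groups overlapped.

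Lpl encodes lipoprotein lipase, which frees fatty acids from lipoproteins. It had 8.99, 23.0, 17.1, 8.72, 21.9 and 16.1 CPM in intervene, 20.4, 9.75, 5.86, 15.8, 20.4 and 30.7 in model, and 12.2, 4.28, 10.9, 14.2, 15.4 and 18.2 in control replicates 1 to 6. The spread within each group exceeded the differences between groups, with log2 fold changes of -0.10 ± 0.37, 0.35 ± 0.37 and 0.45 ± 0.37 for intervene against model, intervene against control and model against control. Lpl was the only member with a negative estimate for intervene against model over all replicates.

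Lgals3 encodes galectin-3, a secreted and cytosolic lectin of activated phagocytes. Intervene replicates 1 to 6 had 2.43, 6.15, 6.46, 2.98, 6.04 and 4.99 CPM. Model libraries had 9.69, 4.11, 3.08, 1.40, 1.33 and 1.96 CPM, and control libraries had 1.93, 1.57, 1.94, 0.256, 0.763 and 0.598 CPM. All 6 intervene libraries lay above all 6 control libraries, and within each replicate set the 3 model libraries lay above the 3 control libraries too. The log2 fold change of intervene against control was 2.03 ± 0.52 (edgeR unadjusted p = 0.0011, adjusted p = 0.319, range 0.0171 to 0.685 over the alternatives). With the replicate set as a factor it was 2.31 ± 0.41 (edgeR adjusted p = 0.0258). Model against control gave 1.60 ± 0.52 (edgeR unadjusted p = 0.00637, adjusted p = 1), and intervene against model gave 0.43 ± 0.50. Without model replicate 1 these values were 1.00 and 1.03. Means were 4.84 ± 1.74 in intervene, 3.60 ± 3.17 in model and 1.18 ± 0.729 CPM in control libraries (SD, n = 6 each).

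Cst7 encodes cystatin F, an inhibitor of lysosomal cathepsins. It had 0.499, 1.49, 1.55, 0.271, 0.403 and 0.616 CPM in intervene, 1.66, 0.133, 0.355, 0.391, 0.267 and 0.385 in model, and 0.262, 0.211, 0.432, 0, 0.191 and 0 in control replicates 1 to 6. Over all replicates the groups overlapped, and the log2 fold change of intervene against control was 2.09 ± 0.73 (edgeR adjusted p = 0.488). Control replicates 4 and 6 had 0 counts, so within replicates 4 to 6 the control level rested on replicate 5 (11 counts). The log2 fold change of intervene against control in that set was 2.34 with that library and 6.98 without it. Over all replicates intervene against model gave 0.60 ± 0.69 and model against control 1.50 ± 0.73. Without model replicate 1 these were 1.39 and 0.71.

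Spp1 encodes osteopontin, a secreted ligand of CD44 and integrins. Intervene replicates 1 to 6 had 139.5, 29.9, 55.6, 12.04, 13.5 and 15.9 CPM, model libraries had 19.7, 29.4, 44.7, 9.88, 10.2 and 8.61, and control libraries had 19.5, 59.3, 30.8, 13.2, 10.7 and 8.17. Intervene replicate 1 was the highest of the 18 libraries by more than the distance between any other neighbours. The groups overlapped, with log2 fold changes of 1.12 ± 0.64 for intervene against model, 0.91 ± 0.64 for intervene against control and -0.21 ± 0.63 for model against control. Without intervene replicate 1 the intervene estimates were 0.31 against model and 0.09 against control. The replicate sets differed more than the treatments. Replicates 4 to 6 lay below replicates 1 to 3 of the same group by log2 fold changes of -2.44 ± 0.52 in intervene, -1.71 ± 0.51 in model and -1.77 ± 0.51 in control libraries (edgeR adjusted p = 0.00968, 0.0345 and 0.0149).

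Itgax encodes CD11c, an integrin chain of dendritic cells and reactive microglia. It had 0.785, 0.971, 2.36, 0.271, 0.201 and 0.274 CPM in intervene, 1.53, 0.0663, 0.533, 0.168, 0.237 and 0.140 in model, and 0.230, 0.664, 0.432, 0.0641, 0.243 and 0 in control replicates 1 to 6. The groups overlapped, and no test passed over all replicates (log2 fold changes 0.86 ± 0.79 for intervene against model, 1.58 ± 0.81 for intervene against control and 0.72 ± 0.82 for model against control). Without model replicate 1 the intervene against model value was 1.80 and the model against control value -0.22.

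Cd68 encodes a glycoprotein of phagocyte lysosomes and is widely used as a stain for them. Levels were 7.28, 13.8, 12.6, 9.67, 14.9 and 16.1 CPM in intervene, 12.7, 6.50, 8.77, 10.3, 9.72 and 12.3 in model, and 10.7, 6.76, 7.20, 7.85, 8.57 and 9.57 in control replicates 1 to 6. Intervene replicate 1 lay among the control libraries and the other 5 did not overlap the control libraries of their own set. The log2 fold change was 0.55 ± 0.19 for intervene against control (edgeR unadjusted p = 0.00974, adjusted p = 0.488), 0.30 ± 0.19 for intervene against model and 0.25 ± 0.19 for model against control.

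**Figure D3:**
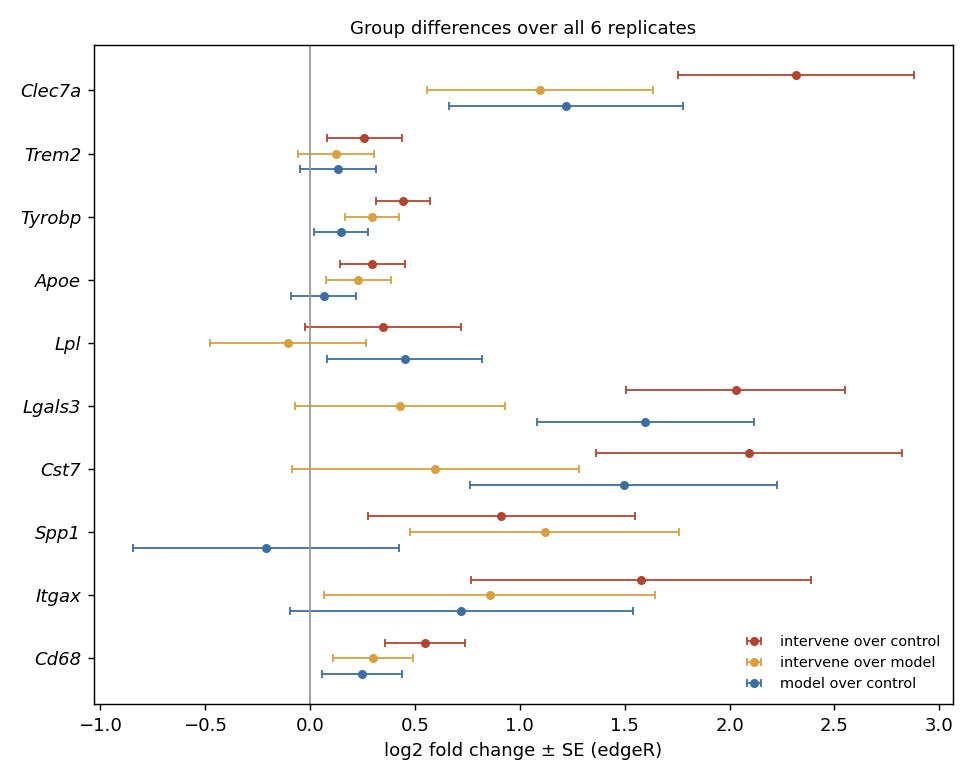
Log2 fold changes with SE for the 10 genes over all 6 replicates a group, for intervene against model, intervene against control and model against control. No point is circled, as none had an edgeR adjusted p under 0.05, and the largest values are those of Clec7a (2.32) and Cst7 (2.09) in intervene against control.

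Within replicates 4 to 6, Apoe was higher in intervene than in model libraries, by a log2 fold change of 0.55 ± 0.10 (edgeR adjusted p = 0.0087). It was the only member of 10 called in that comparison, in which 3.66% of all genes were called higher and 2.05% lower. Its adjusted p stayed past the threshold in each of the 25 alternatives run, from 5.81e-06 to 0.0414. Lgals3 had a log2 fold change of 1.58 ± 0.45 (adjusted p = 0.0518) and Clec7a 1.95 ± 0.63 (adjusted p = 0.0811). Both were past the threshold with DESeq2 (0.00871 for Lgals3 and 0.0215 for Clec7a), which called 3 of 10 members and 6% of all genes higher. The intervene and model libraries did not overlap for 4 of 10 members, Clec7a, Apoe, Lgals3 and Spp1, with intervene higher, while 14.5% of all genes were higher without overlap.

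Within replicates 1 to 3, edgeR called 0 of 10 members between intervene and model (0%), and DESeq2 and limma also called 0. Spp1 alone had an unadjusted p under 0.05, with a log2 fold change of 1.26 ± 0.50 (edgeR adjusted p = 1), against 2.11% of all genes higher at that level. No member was without overlap between those groups, and 4.74% of genes were higher without overlap.

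Against control, intervene replicates 4 to 6 had 4 of 10 members higher and 0 lower, where 14.7% of all genes were higher and 11.2% lower. Lgals3 rose by a log2 fold change of 3.06 ± 0.49 (edgeR adjusted p = 0.000561), Clec7a by 2.94 ± 0.67 (0.00509), Apoe by 0.79 ± 0.10 (0.000127) and Tyrobp by 0.51 ± 0.18 (0.0499). Apoe and Lgals3 were called in 25 of 25 alternatives and Clec7a in 24, with an adjusted p of 0.0503 by limma on log2(FPKM + 1). Tyrobp was called in only 6 of 25, with adjusted p from 0.0204 to 0.218, and its groups overlapped. Trem2 did not pass (log2 fold change -0.12 ± 0.21, adjusted p = 0.698). Groups without overlap were found for 5 of 10 members, Clec7a, Apoe, Lgals3, Cst7 and Cd68, and for 21.6% of all genes.

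Among replicates 1 to 3, edgeR called 0 of 10 members between intervene and control (0%), as did DESeq2 and limma. The members with an unadjusted p under 0.05 were 6 of 10, all higher, against 5.26% of all genes. They were Clec7a (log2 fold change 1.999 ± 0.61, adjusted p = 0.411), Lgals3 (1.46 ± 0.45, 0.409), Trem2 (0.56 ± 0.21, 0.482), Tyrobp (0.39 ± 0.18), Cst7 (1.999 ± 0.80) and Itgax (1.70 ± 0.77). In each of these 6 genes the 3 intervene libraries lay above the 3 control libraries, which held for 7.64% of all genes.

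**Figure D4:**
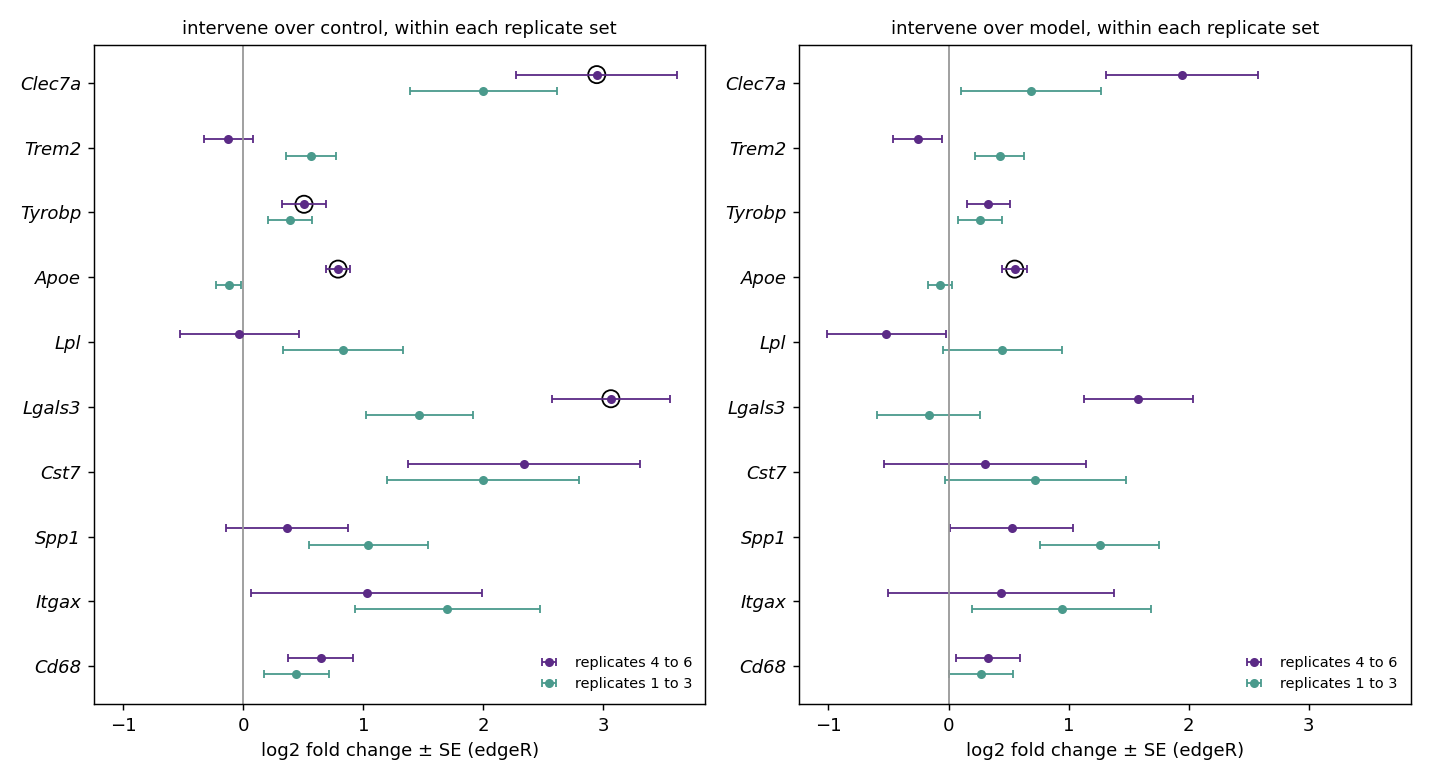
Log2 fold changes with SE for the 10 genes within replicates 4 to 6 (purple) and replicates 1 to 3 (green), for intervene over control (left panel) and intervene over model (right panel). Circles mark an edgeR adjusted p under 0.05: Apoe in intervene against model, and Lgals3, Clec7a, Apoe and Tyrobp in intervene against control, all in replicates 4 to 6.

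Whether the sets differ in their response was tested directly. For Apoe the intervene against control log2 fold change in replicates 4 to 6 exceeded that in replicates 1 to 3 by 0.91 ± 0.14 (edgeR adjusted p = 0.00126, called in 25 of 25 alternatives). Among all genes 9.54% were called in that direction. For intervene against model the Apoe difference was 0.62 ± 0.14 (adjusted p = 0.0627, and 0.00206 by DESeq2), where 0.276% of genes were called in that direction by edgeR. For Lgals3 the differences were 1.60 ± 0.65 and 1.75 ± 0.62 (edgeR adjusted p = 0.0988 and 0.172) and for Trem2 -0.69 ± 0.29 and -0.68 ± 0.29 (0.112 and 0.245), in intervene against control and intervene against model. No other member was called. The 1 call of 10 members in intervene against control is near the share of all genes, so it describes Apoe and not the group.

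The model group against control called 0 of 10 members in either set with edgeR, DESeq2 or limma. In replicates 4 to 6, where edgeR called 0% of genes, 2 of 10 members had an unadjusted p under 0.05, against 6.17% of genes higher: Lgals3 (log2 fold change 1.48 ± 0.50, adjusted p = 0.337) and Apoe (0.24 ± 0.10, adjusted p = 0.459). Lgals3, Cst7 and Cd68 were without overlap, as were 9.96% of genes. In replicates 1 to 3 the 2 members were Lgals3 (1.63 ± 0.45, adjusted p = 0.8) and Clec7a (1.31 ± 0.61), against 3.67% of genes, and Lgals3 alone was without overlap (5.67% of genes). Clec7a there rested on model replicate 1, and without it the value was -0.01.

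The saline-treated tissue itself differed between the sets. Control replicates 4 to 6 were lower than control replicates 1 to 3 for 3 of 10 members, against 19.6% of all genes: Apoe (-0.67 ± 0.10, edgeR adjusted p = 0.000148), Lgals3 (-1.70 ± 0.49, 0.012) and Spp1. In the model group the same 3 genes were lower, against 9.78% of genes, Apoe by -0.38 ± 0.10 (adjusted p = 0.0171) and Lgals3 by -1.85 ± 0.46 (0.0124). In the intervene group Trem2 and Spp1 were lower, against 7.16% of genes, and Apoe, without overlap and higher in replicates 4 to 6, did not pass (0.24 ± 0.10, adjusted p = 0.122). Of the control calls, Lgals3 was lost without control replicate 4 (edgeR adjusted p = 0.0539) and by limma on log2(FPKM + 1) (0.156), and Spp1 without control replicate 2 (0.0827) or 6 (0.0532). Of the model calls, Apoe was lost without replicate 2, 3, 5 or 6 (adjusted p 0.0533 to 0.0655) and Lgals3 without replicate 1 (0.0504) or 4 (0.0535). Spp1 was lost there without replicate 2, 3, 4, 5 or 6 (0.0755 to 0.116) and without the filter on low counts (0.0843). The Spp1 call in the intervene group was lost when edgeR was fitted to only the libraries compared (adjusted p = 0.0763).

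Markers of brain regions and other glia moved with these set results, and their part in them was not tested. In intervene against model, replicates 4 to 6, 8 of 11 thalamic neuron genes, 9 of 12 reactive astrocyte genes and 3 of 10 mature oligodendrocyte genes were called higher and 0 lower. Against control, 10 of 11, 7 of 12 and 9 of 10 were called higher and 0 lower. Summed homeostatic astrocyte genes, whose cells also make Apoe, were 4533 to 4681 CPM in intervene, 4225 to 4555 in model and 4063 to 4377 in control replicates 4 to 6, and 3567 to 4137, 3423 to 3954 and 3733 to 4038 CPM in replicates 1 to 3. Summed reactive astrocyte genes were 620 to 912, 242 to 329 and 200 to 260 CPM in replicates 4 to 6, and 696 to 953, 567 to 762 and 343 to 636 CPM in replicates 1 to 3. Choroid plexus genes spread most, with sums of 131 to 4133 CPM in intervene, 62.7 to 114 in model and 4.68 to 8.04 in control replicates 4 to 6, and of 93.7 to 10511, 3368 to 5686 and 59.6 to 759 CPM in replicates 1 to 3. Of the 10 choroid plexus genes, 0 were called in intervene against model in replicates 4 to 6 (8 had an unadjusted edgeR p under 0.05, all higher) and 9 were called higher against control. Erythroid genes summed to 269 to 411, 142 to 185 and 116 to 159 CPM in replicates 4 to 6, and to 229 to 243, 200 to 491 and 232 to 327 CPM in replicates 1 to 3. Cortical and hippocampal neuron genes summed to 2679 to 6052, 4759 to 6966 and 6535 to 7323 CPM in replicates 4 to 6, lower in intervene than in control libraries, and to 1383 to 3134, 2089 to 3847 and 496 to 2760 CPM in replicates 1 to 3.

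Other leukocytes were checked with lists of marker genes, again in the order intervene, model and control. The 12 infiltrating monocyte genes summed to 31.8 to 40.5, 34.0 to 41.2 and 36.2 to 44.3 CPM in replicates 4 to 6, with overlap between all groups. In replicates 1 to 3 the sums were 49.9 to 63.2, 38.9 to 56.3 and 34.3 to 61.0 CPM. The sum includes Vcan, also listed for oligodendrocyte precursors, and single genes differed from it. Over all replicates, intervene against control, Ccr2 gave a log2 fold change of 1.39 ± 0.58 and Ccr1 1.21 ± 0.51 (edgeR unadjusted p = 0.027 and 0.0278, adjusted p = 0.56 for both). Vcan gave -0.18 ± 0.13. Border macrophage genes summed to 10.4 to 13.5, 12.2 to 15.1 and 16.7 to 18.5 CPM in replicates 4 to 6, lower in intervene than in control libraries. Those of replicates 1 to 3 summed to 21.3 to 25.1, 19.3 to 21.8 and 14.0 to 22.7 CPM. The 12 neutrophil genes summed to 6.49 to 9.22, 5.74 to 12.3 and 5.47 to 7.27 CPM in replicates 1 to 3, where the groups overlapped. In replicates 4 to 6 their sums were 12.3 to 16.4, 4.80 to 6.62 and 6.34 to 10.1 CPM, highest in intervene libraries. In that set S100a9, a neutrophil and monocyte calgranulin, was the 1 of 4 tested that was called higher in intervene against both groups. Of the 12 monocyte genes 6 passed the filter, and of these Thbs1 was called higher in both comparisons. The 7 dendritic cell genes, relevant to Itgax, summed to 6.98 to 11.7, 9.56 to 10.3 and 11.99 to 13.4 CPM in replicates 4 to 6, lower in intervene than in control libraries, and to 10.2 to 15.8, 12.2 to 14.1 and 10.4 to 13.03 CPM in replicates 1 to 3. The 10 lymphocyte genes summed to 10.5 to 35.9, 19.2 to 54.2 and 11.03 to 17.4 CPM in replicates 4 to 6, and to 3.21 to 6.86, 2.62 to 3.19 and 1.93 to 21.5 CPM in replicates 1 to 3. No border macrophage gene was at 0 in a whole set of a group. At 0 in all 3 libraries of replicates 4 to 6 were Ms4a4c and F10 in model and F10 in control libraries, of the monocyte list, and Ly6g, Camp and Ltf in intervene, Ly6g and Camp in model and Ly6g in control libraries, of the neutrophil list. The part of these cells in the members' values was not tested.

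Of genes that mark resting microglia, single receptors and the summed list differed in pattern. P2ry12, a purine receptor, averaged 32.1 ± 5.95 CPM in intervene, 31.2 ± 5.81 in model and 34.3 ± 7.92 in control libraries. Cx3cr1, the fractalkine receptor, averaged 38.3 ± 6.12, 32.7 ± 5.36 and 33.1 ± 5.27 CPM in the same order, and Csf1r 71.8 ± 2.84, 71.9 ± 10.4 and 76.9 ± 12.3 (SD, n = 6 each). Tmem119 averaged 19.2 ± 2.38 in intervene, 20.2 ± 3.50 in model and 24.3 ± 3.72 in control libraries, a log2 fold change of -0.34 ± 0.13 for intervene against control that did not pass (edgeR adjusted p = 0.536). Slc2a5 was lower in that comparison too (-0.40 ± 0.17), while C1qb (0.36 ± 0.14) and Sall1 (0.30 ± 0.14) were higher. None of these passed either (edgeR adjusted p = 0.536 to 0.592). Of 17 homeostatic genes, 0 were called in intervene against model in replicates 4 to 6, with a median log2 fold change of 0.04. Against control in that set 3 were called higher and 1 lower, which was Tmem119 (-0.55 ± 0.17, adjusted p = 0.0261), where 14.7% of all genes were higher and 11.2% lower. The summed list did not overlap in replicates 4 to 6, with 1326 to 2306 CPM in intervene, 907 to 1094 in model and 717 to 864 in control libraries. Much of that sum was Sparc, a matrix protein that vessels and astrocytes also make and that was named after its values were seen, with 1071 ± 543 CPM in intervene, 422 ± 94.5 in model and 188 ± 10.1 in control libraries. The summed list overlapped in replicates 1 to 3, at 1210 to 1929, 1186 to 1698 and 1613 to 2249 CPM.

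Of 30 other genes of the disease-associated programme, 0 were called over all replicates, and 13 of 30 had an unadjusted p under 0.05 in intervene against control, all higher, as did 5.12% of all genes. The median log2 fold change was 0.34. In replicates 4 to 6, 7 of 30 were called higher in intervene than in model libraries and 0 lower (median 0.49), where 3.66% of all genes were higher, and 14 were called higher and 1 lower against control (median 0.71), where 14.7% of all genes were higher and 11.2% lower. These shares of all genes are the background for the lists that follow. In replicates 1 to 3 edgeR called 0% of all genes in intervene against model and against control, so no listed gene was called there. Lilrb4a, an inhibitory immunoglobulin-like receptor, had 2.43 ± 0.303 CPM in intervene, 0.381 ± 0.230 in model and 0.193 ± 0.0839 in control replicates 4 to 6. Its log2 fold change there was 2.68 ± 0.61 against model (edgeR adjusted p = 0.0201) and 3.66 ± 0.65 against control (0.000952), and reads could be shared with its near copy Lilrb4b.

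The chemokines Ccl3 and Ccl4 were higher too. In replicates 4 to 6 Ccl4 had 4.67 ± 2.02 CPM in intervene, 0.642 ± 0.294 in model and 0.337 ± 0.244 in control libraries, and Ccl3 had 5.40 ± 1.92, 0.822 ± 0.201 and 0.481 ± 0.338 (SD, n = 3 each). Both were called higher in intervene against model (Ccl3 2.70 ± 0.55, edgeR adjusted p = 0.0129, and Ccl4 2.87 ± 0.56, 0.0106) and against control (Ccl3 3.54 ± 0.58, 0.00059, and Ccl4 3.76 ± 0.59, 0.000442). Ccl4 in replicates 1 to 3 averaged 0.386 ± 0.211 CPM in intervene, 0.134 ± 0.123 in model and 0.143 ± 0.0217 in control libraries.

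Of the signalling genes downstream of TREM2, TYROBP and dectin-1, 19 of 23 were tested. Over all replicates 0 were called, and 7 of 19 had an unadjusted p under 0.05 in intervene against control, all higher. In replicates 4 to 6, 3 were called higher and 0 lower in intervene against model, and 5 higher and 1 lower against control. Lyn, a SRC-family kinase that phosphorylates such receptors, had 13.7 ± 0.240 CPM in intervene, 8.99 ± 0.147 in model and 8.36 ± 0.461 in control replicates 4 to 6. Fcer1g, an adaptor that works beside TYROBP, was called higher in intervene than in control libraries (30.7 ± 6.55 CPM in intervene and 14.3 ± 1.53 CPM in control replicates 4 to 6).

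Of the phagocytic receptor and lysosome genes, 24 of 26 were tested, and 2 were called higher and 0 lower in intervene against model in replicates 4 to 6, Msr1 and Fcgr4. Msr1, a scavenger receptor, had 1.60 ± 0.290 CPM in intervene, 0.309 ± 0.0370 in model and 0.290 ± 0.0498 in control libraries of that set. Against control 10 were called higher and 3 lower. Of the lipoprotein genes 15 of 18 were tested, with 3 higher and 1 lower against model and 5 higher and 1 lower against control in that set. Apoc1, the apolipoprotein gene beside Apoe and singled out after its values were seen, had 6.18 ± 2.72 CPM in intervene, 2.25 ± 0.497 in model and 0.554 ± 0.242 in control replicates 4 to 6. Apoc1 in replicates 1 to 3 had 7.78 ± 3.51, 7.03 ± 1.97 and 6.80 ± 2.47 CPM. Cd44, a receptor of osteopontin that reactive astrocytes also express, had 6.56 ± 0.984 CPM in intervene, 1.73 ± 0.248 in model and 1.97 ± 0.720 in control replicates 4 to 6, and was called higher in intervene against both.

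The members did not vary as 1 block. Within the 9 libraries of replicates 1 to 3, 23 of 45 pairs of members had a Pearson correlation of log2 CPM of at least 0.7, and 12 of 45 did within replicates 4 to 6. These libraries share their groups, depth and tissue make-up, so the values are descriptions. Correlated with the mean of the 10 standardised members, of which each is itself a part, Clec7a (0.98 in replicates 1 to 3 and 0.89 in replicates 4 to 6), Tyrobp (0.93 and 0.84), Cst7 (0.98 and 0.83), Cd68 (0.84 and 0.89) and Lgals3 (0.80 and 0.97) followed it in both sets. Trem2 (0.99 and 0.01) and Lpl (0.81 and 0.08) did so in replicates 1 to 3 but not in replicates 4 to 6, and Itgax had 0.83 and 0.55. Apoe did the opposite (-0.35 and 0.92), and Spp1 followed in neither (-0.04 and 0.37).

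**Figure D5:**
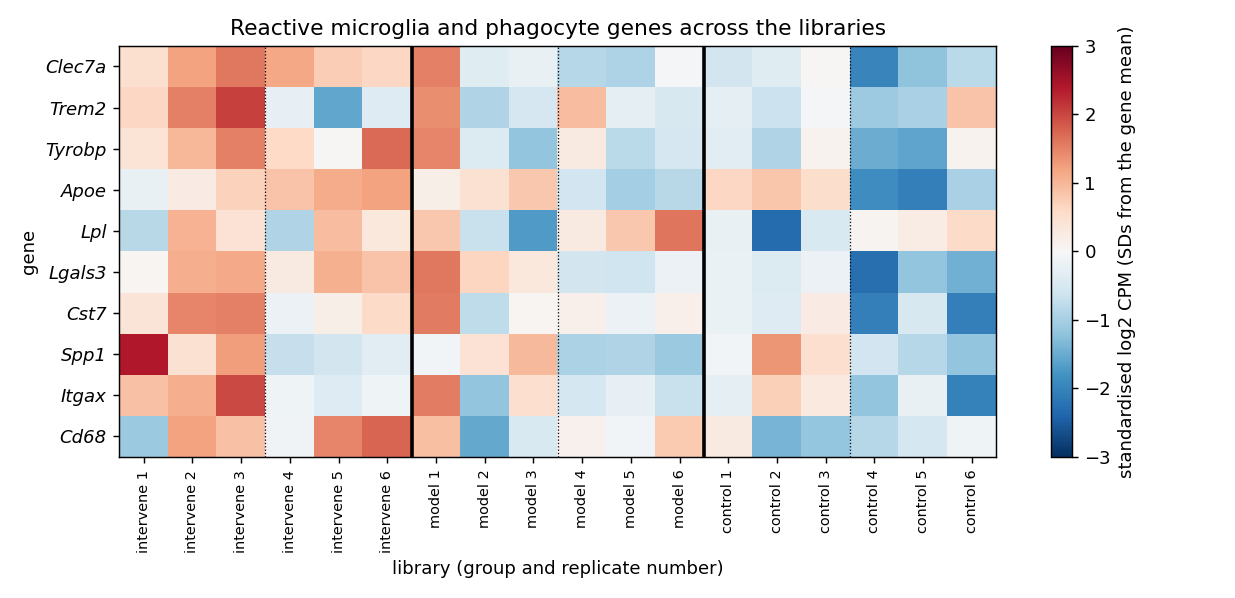
Log2 CPM of the 10 genes, standardised over all 18 libraries, with libraries in columns (intervene, model, control from left to right) and genes in rows. Model replicate 1 is high for Clec7a, Trem2, Tyrobp, Lgals3, Cst7 and Itgax (1.39 to 1.59 SDs above the gene mean). It is less so for Cd68 (0.89) and Lpl (0.80). Control replicates 4 to 6 are low for most of the 10.

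Among 13633 other genes with a mean of at least 1 CPM, the 5 most like that mean, by the lower of the correlations within the sets (n = 9 libraries each), were Lyz2 (0.95), C3 (0.94), Ccl4 (0.89), Slc11a1 (0.89) and Cd52 (0.88). Ccl4 met the minimum of 1 CPM only through intervene replicates 4 to 6, which averaged 4.67 CPM. In every other set of a group Ccl4 averaged 0.134 to 0.642 CPM. Its correlation within replicates 1 to 3 rested on low values, with group means of 0.134 to 0.386 CPM. As these genes were picked for following the members' mean over libraries of all groups, their group means are not independent of the members' values. Lyz2, which shares sequence with its near copy Lyz1, averaged 22.7 ± 9.36 CPM in intervene, 15.3 ± 10.3 in model and 9.45 ± 2.82 in control libraries. C3, the central complement component, averaged 6.84 ± 4.08, 3.86 ± 4.41 and 1.61 ± 1.37 CPM in the same order. Slc11a1, a metal transporter of phagosomes, averaged 3.52 ± 0.506, 2.74 ± 0.479 and 2.48 ± 0.343 CPM, and Cd52 5.91 ± 1.52, 4.09 ± 1.74 and 2.68 ± 1.04 CPM (SD, n = 6 each).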

How the data were processed

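Alignment used HISAT2 and counting featureCounts on GRCm39, per the submitters' processing notes; for versions and strandedness the sources used here give nothing. The authors deposited raw counts for 50559 genes in 18 libraries, and FPKM made from those counts: the implied gene length was whole and equal across libraries for 18117 of 18117 genes counted in every library (relative tolerance 1e-06). FPKM served to compare levels between genes and as an alternative. Totals were 28481225 to 118461420 counts, the other 16 libraries after the 2 highest having at most 36361681. In each library 69.6 to 76.8% of genes with 1 to 1000 counts had an even count, so single counts need not be independent and counting error of low genes may exceed their nominal value. A chi-square comparison of same-group libraries (genes of 20 counts or more) gave at least 11.4 per degree of freedom, so none repeated another library of its group. Libraries of different groups were not compared in this way.

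The test of counts was edgeR 4.0.16 under R 4.3.3 (robust quasi-likelihood F test, TMM scaling, filterByExpr), in 1 fit with 3 group means and 1 with 6 means (group by replicate set), and Benjamini-Hochberg adjustment over 18452 genes at 0.05. A prior count of 2 entered only the log2 CPM used for correlations and standardised values, and the fits kept the edgeR default. SE is the log2 fold change over the square root of F. Alternatives were DESeq2 1.42.0, library totals, no filter, limma 3.58.1 on log2(FPKM + 1) and log2(FPKM + 0.1), only the libraries compared, the replicate set as a factor, a replicate block and leaving out each library. Fits were tested on simulated counts with 200 changed genes. Libraries of the same number in model and control deviated together from their group means (r 0.21 to 0.70, over 0.1 in 6 of 6 pairs). That check from the data includes the replicate set, which such libraries share, and the labels give no pairing. Taken from the means of group and set, r was -0.26 to 0.30 and 4 of 6 pairs were over 0.1. By that measure 2 of 6 pairs of intervene and model and 1 of 6 of intervene and control were over 0.1.

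The members, 22 gene lists (281 genes) and replicate sets were chosen with earlier results of these data known. Named were the 10 members, the 5 genes most like them, and in each other list up to 4 genes of lowest p in intervene against model and against control over all replicates; Apoc1, Sparc, P2ry12, Csf1r and the Trem2 to Tyrobp ratio were chosen after values were seen. No list test was made.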

Additional observations from a re-analysis of the deposited data

Results flagged for a closer look

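In 6 of 30 sets of 6 libraries (each gene in each group), the highest library lay farther from the next than Dixon's 95% critical value allows. For independent sets from a normal distribution chance gives about 1 in 20. CPM that mix the replicate sets, and genes that vary together, need not follow that rate. Model replicate 1 accounted for 4 of the 6. It had 4.29 CPM of Clec7a (next model library 0.980), 9.69 of Lgals3 (4.11), 1.66 of Cst7 (0.391) and 1.53 of Itgax (0.533). Its Trem2 (25.8 CPM) and Tyrobp (31.7 CPM) were also the highest of the model libraries, within that critical value. Intervene replicate 1 had 139.5 CPM of Spp1 (55.6), and intervene replicate 3 had 2.36 CPM of Itgax (0.971). Without model replicate 1, the model against control estimates over all replicates were 0.30 for Clec7a, 1.00 for Lgals3, 0.71 for Cst7 and -0.22 for Itgax, and with it 1.22, 1.60, 1.50 and 0.72. Without intervene replicate 1 the Spp1 estimates of the intervene group were 0.31 against model and 0.09 against control libraries.

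The Apoe response of the intervene against the control group differed between replicate sets, by 0.91 on the log2 scale (higher in replicates 4 to 6, edgeR adjusted p = 0.00126). In replicates 4 to 6, 3 of 3 intervene libraries lay above the 3 control libraries, and in replicates 1 to 3 the groups overlapped.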

How the results depend on the processing

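Of 68 results on single genes, 1635 of 1718 values under alternatives kept their direction and side of the threshold, and 9 reversed. The reversed results were these: Lpl in intervene against model (-0.10) was 0.0327 with the replicate block and -0.28 to 0.14 over leave-one-out fits; in model against control Apoe was -0.0159 to 0.15, Spp1 -0.60 to 0.31 and Itgax -0.22 to 1.17, and Clec7a in replicates 1 to 3 was -0.0079 to 1.68. The replicate block changed no count of genes called by over 1.5 times, and no count of members except Tyrobp in intervene against control, replicates 4 to 6 (adjusted p = 0.0554, 3 members in place of 4); between the sets of 1 group no such fit exists. DESeq2 called more genes. Over all replicates it called 2 genes in model against control, 2 in intervene against model and 73 in intervene against control (members 2), where the replicate set as a factor called 66 (members 2), limma 1 with each pseudocount and the fit of only the libraries compared 1. In model against control it called 11 in replicates 1 to 3 (limma 1 and 1) and 221 in replicates 4 to 6, where no filter gave 6, limma with the pseudocount 0.1 gave 1 and only the libraries compared gave 283. In intervene against model it called 1 gene in replicates 1 to 3 and 1880 in replicates 4 to 6 (edgeR 1053), where DESeq2 and only the libraries compared each called 3 members. In intervene against control, replicates 1 to 3, it called 44 genes, and no filter 4; in replicates 4 to 6 limma with the pseudocount 1 called 2 members. Intervene replicates 4 to 6 against 1 to 3 gave 951 genes with only the libraries compared (edgeR 2752). For the difference between sets, model against control gave 200 by DESeq2, 5 without a filter and 10 with only the libraries compared. Intervene against model (edgeR 65) gave 673 by DESeq2 (members 1), 16 with library totals, 120 without a filter, 35 and 28 by limma and 8 with only the libraries compared. Leaving out 1 library at a time, genes called were 0 to 4 in intervene against control over all replicates, 0 to 4 and 0 to 8 in model against control in replicates 1 to 3 and 4 to 6, 0 to 1 in intervene against control in replicates 1 to 3, 159 (without model replicate 4) to 1266 in intervene against model in replicates 4 to 6 (members 1 to 3) and 2881 to 4965 against control. Between sets they were 1278 to 3854 in model (members lower 1 to 3), 1048 to 3274 in intervene (members lower 1 to 3) and, in control, members lower 2 to 5. For differences between sets they were 0 to 12, 2 to 586 (members 0 to 1) and 2106 to 3472 for model against control, intervene against model and intervene against control. Depth limits Cst7 and Itgax most, at 0 to 54 and 0 to 76 counts.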
